A study of Mus musculus with 36 samples.

Results

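The genes of glycogen synthesis and breakdown were followed in the epididymal white fat of 36 C57BL/6J mice, all adult males. The set holds 9 genes, chosen by name: the glycogen-targeting phosphatase subunits Ppp1r3b, Ppp1r3c and Ppp1r3d, the glycogen synthases Gys1 and Gys2, the branching enzyme Gbe1 and the glycogen phosphorylases Pygl, Pygm and Pygb. The array carries 12 probes for them among 41174 probes that are not controls. Of these, 11 probes for 8 genes passed the filter on dim signals, against 16497 genes that passed in all. Pygm did not pass. During 3 weeks of adaptation all mice had free access to a purified high-fat diet, in which fat gave 30% of the energy. The 12 mice of the group t=0 were killed then. The 12 HF-AL mice (high fat, ad libitum) stayed on the diet without restriction for 12 more weeks. The 12 HF-DR mice (high fat, dietary restriction) were given limited amounts of it over those 12 weeks, written as 70 en% in the labels, with vitamins and minerals added so that their intake matched that of the other mice. No group ate a low-fat diet, so the high-fat diet is common to all 3. The time of killing and the time since the last meal are not in the labels and cannot be told apart from the restriction.

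Glycogen is a branched glucose polymer. Glycogen synthase adds glucose from UDP-glucose to the chain, the branching enzyme makes the branches, and glycogen phosphorylase takes glucose off again as glucose 1-phosphate. Subunits of the Ppp1r3 family bring protein phosphatase 1 to the glycogen particle, where it switches the synthase on and the phosphorylase off by removing phosphate. The synthase and the phosphorylase each exist as isoforms named for the tissue in which they were first described: Gys1 for muscle and Gys2 for liver, and Pygm, Pygl and Pygb for muscle, liver and brain. White fat holds little glycogen, and its store is known to turn over with fasting and refeeding.

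RNA of each mouse, labelled with the red dye Cy5, was hybridised to 1 Agilent array against a green Cy3 pool of all samples. A value is the log2 ratio of the animal to that pool, so 0 is the level of the pool and a step of 1 is a doubling. Means are given with their SD over animals and differences with their standard error (SE). A gene is said to have risen or fallen when the adjusted p of limma, a linear model fitted over all genes, was under 0.05. Between 44.6% and 86.3% of the probes were well above background in Cy5 on the 36 arrays, and the number of arrays limits the precision. All 10 adipocyte markers, Adipoq and Plin1 among them, passed the filter. The arrays HF-DR 8 and 9 stood apart. Their summed Cy5 signal of 5 seminal vesicle markers was 1523290 and 1405170, against 730713 on HF-DR 7 and 23859 to 113658 on the other HF-DR arrays. Their sum over 10 skeletal muscle markers was 12943 and 13343, against 972 to 2287 on the other HF-DR arrays, and their sum over 10 adipocyte markers, 605505 and 696294, was below the 1272730 to 1947860 of the others. Results are therefore given with these 2 arrays and, where that matters, without them.

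Promoter sequence, from RefSeq on GRCm38.p6, matched 7 of the 9 genes (Ppp1r3c, Ppp1r3d, Gys1, Gbe1, Pygl, Pygm and Pygb). The 250 bases before the annotated start are printed for 3 genes that were higher in HF-DR than in HF-AL and for Pygb, which was lower, so that the promoters of the isoforms Pygl and Pygb can be compared. Capitals mark matches to the searched motifs.
Ppp1r3c, chr19:36736605-36736854, reverse strand: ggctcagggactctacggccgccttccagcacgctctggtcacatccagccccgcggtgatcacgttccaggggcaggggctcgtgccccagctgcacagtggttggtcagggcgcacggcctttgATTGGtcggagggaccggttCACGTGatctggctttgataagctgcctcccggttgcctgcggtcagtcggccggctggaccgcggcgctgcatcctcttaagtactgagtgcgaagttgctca
Gbe1, chr16:70313699-70313948, forward strand: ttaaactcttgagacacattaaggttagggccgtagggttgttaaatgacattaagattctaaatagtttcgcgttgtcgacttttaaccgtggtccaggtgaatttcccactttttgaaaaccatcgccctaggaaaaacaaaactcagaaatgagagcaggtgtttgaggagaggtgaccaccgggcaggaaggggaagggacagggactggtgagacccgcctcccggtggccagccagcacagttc
Pygl, chr12:70227684-70227933, reverse strand: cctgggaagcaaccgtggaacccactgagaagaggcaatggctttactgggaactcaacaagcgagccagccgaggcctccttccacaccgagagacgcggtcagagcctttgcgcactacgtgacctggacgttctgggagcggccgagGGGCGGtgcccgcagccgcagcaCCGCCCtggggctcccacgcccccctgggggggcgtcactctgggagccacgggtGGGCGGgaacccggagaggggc
Pygb, chr2:150786546-150786795, forward strand: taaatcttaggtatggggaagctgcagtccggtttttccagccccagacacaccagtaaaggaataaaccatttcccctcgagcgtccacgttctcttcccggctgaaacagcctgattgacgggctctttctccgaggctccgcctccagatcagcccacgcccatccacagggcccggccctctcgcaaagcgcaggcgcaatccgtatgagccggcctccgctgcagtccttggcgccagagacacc
The motifs were searched on both strands. They were the E-box CACGTG, the cyclic AMP element TGACGTCA, the forkhead motif TGTTTAC, the sterol element TCACNCCAC, the GC box GGGCGG and the CCAAT box CCAAT. The E-box was in 2 of the 7 promoters, those of Ppp1r3c and Ppp1r3d, and in 6.02% of all 32851 promoters of this length. The GC box was in 3, those of Ppp1r3d, Gys1 and Pygl, against 32.7% of all promoters, and CCAAT in 2, those of Ppp1r3c and Gys1, against 33.8%. The cyclic AMP element, the forkhead motif and the sterol element, present in 1.55%, 3.17% and 1.05% of all promoters, had no match in the 7 windows, and the windows of Gbe1 and Pygb held none of the 6 motifs. The GC content was 69.2% for Pygl and 60.0% for Pygb, with a median of 52.4% over all promoters.

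After 12 weeks, HF-DR differed from HF-AL in most of the machinery. Of the 8 genes measured, 6 rose in HF-DR (Ppp1r3b, Ppp1r3c, Gys1, Gys2, Gbe1 and Pygl), 1 fell (Pygb) and 1 did neither (Ppp1r3d). The comparison asks how the depot of restricted mice differs from that of mice of the same age on free access to the same diet. Restriction went with change in 64.7% of all genes tested, 28.8% higher and 35.9% lower, so that a single call says little. These were 4756 higher and 5925 lower of 16497 genes, against 5208 and 4632 of 15342 genes in the authors' series matrix. More genes were thus higher than lower in the series matrix, the reverse of the main fit. The median difference of the 8 genes was 1.52 on the log2 scale, against -0.04 for all genes tested. The genes were chosen with earlier results of these data known, so these medians are a description only. Without HF-DR 8 and 9 the count was 7 higher and 1 lower. The 28.8% and 35.9% come from the fit of all 36 arrays, and the shares without these 2 arrays are not given here. Markers of other cell types moved in the same comparison: 10 of 10 macrophage and 8 of 8 fibroblast markers fell, as did 7 of 10 adipocyte markers. The medians of these lists were -0.75, -1.64 and -0.58. Other lists rose in part: 4 of 5 seminal vesicle markers (median 2.19), 3 of 3 measured red blood cell markers (0.60) and 2 of 4 measured neutrophil markers (0.52). Of 6 hepatocyte markers only albumin (Alb) passed the filter, and it rose by 0.55 ± 0.12, with the summed signal of the list at 131 to 850 in HF-DR and 248 to 489 in HF-AL. The part of these cell types in the differences of the glycogen genes was not tested. In whole tissue, fewer cells of a type and less RNA per cell cannot be told apart.

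**Figure D1:**
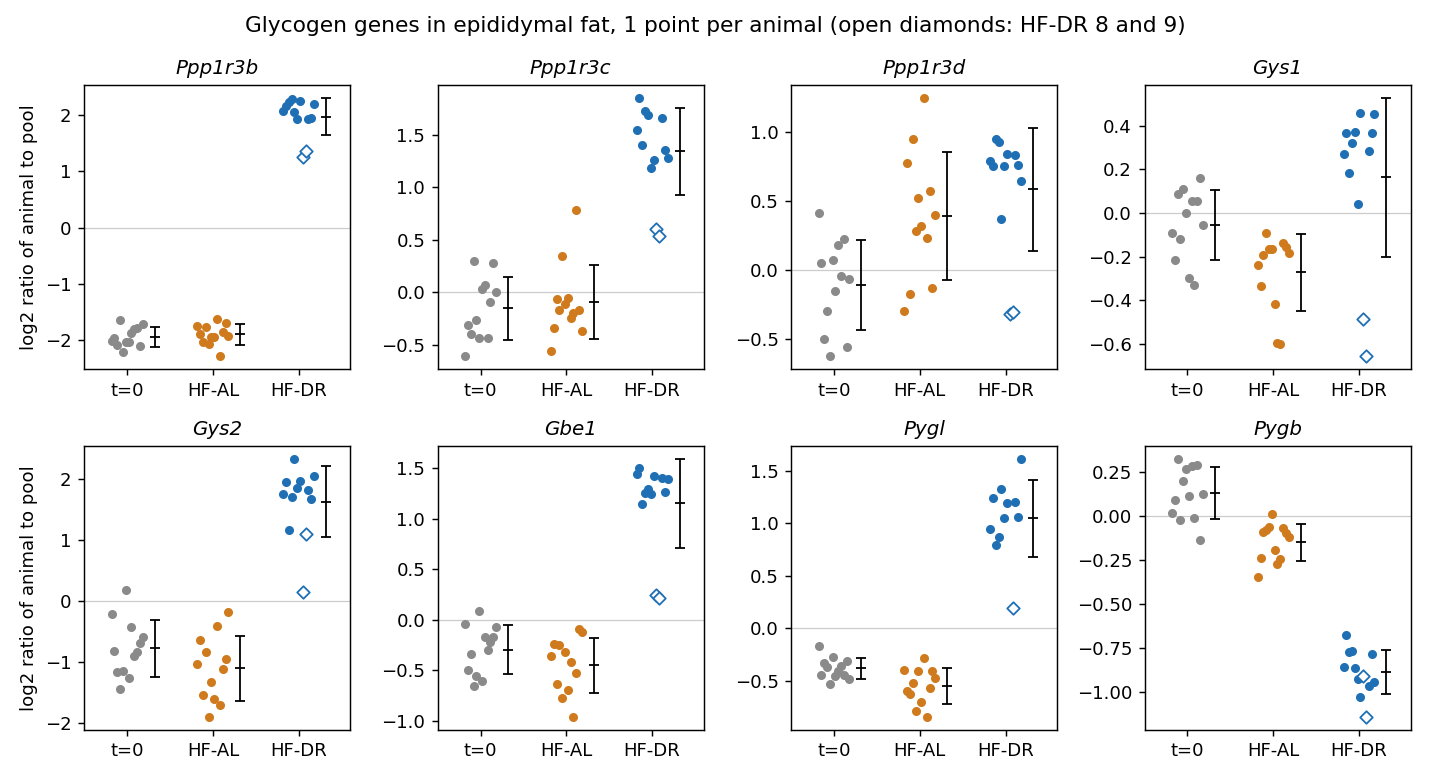
Log2 ratio of each animal to the pool (vertical axis) for the 8 measured glycogen genes in the groups t=0, HF-AL and HF-DR, 1 point per animal, with the mean and SD beside each group. In Ppp1r3b the HF-DR animals lie at 1.26 to 2.28 and all others at -1.62 or lower. The open diamonds, HF-DR 8 and 9, lie at the low end of HF-DR for Ppp1r3b, Ppp1r3c, Ppp1r3d, Gys1, Gys2 and Gbe1. For Pygl HF-DR 9 lies lowest and HF-DR 8 has no value.

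Ppp1r3b encodes the targeting subunit known as GL, first described in liver. Its probe lies on chromosome 8 from 36855684 to 36855743 (mm8, forward strand). Its log2 ratio to the pool ran from 1.26 to 2.28 in HF-DR with a median of 2.06, from -2.28 to -1.62 in HF-AL with a median of -1.91, and from -2.20 to -1.64 in t=0 with a median of -1.99. Every HF-DR animal was far above every animal of the other groups, and HF-AL and t=0 covered the same range. The lowest HF-DR values, 1.26 and 1.37, were those of HF-DR 8 and 9. The HF-DR mean of 1.97 ± 0.33 (SD, n = 12) and the HF-AL mean of -1.90 ± 0.18 (SD, n = 12) gave a difference of 3.87 ± 0.096 (SE) or 14.6-fold (limma, adjusted p = 1.26e-27). This was the 5th largest difference in size among all 16497 genes. Its size depended on how background was removed: the fold was 10.6 with a background correction fitted on all spots and 23.6 with the authors' processed signals. Within the 3 slides that held both groups the difference was 3.86 to 4.16.

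Ppp1r3c encodes the subunit known as protein targeting to glycogen (PTG). The probe used lies on chromosome 19 from 36797170 to 36797111 (mm8, reverse strand). Its log2 ratio ran from 0.54 to 1.85 in HF-DR (median 1.38), from -0.55 to 0.78 in HF-AL (median -0.17) and from -0.61 to 0.30 in t=0 (median -0.17). The groups HF-DR and HF-AL overlapped through 1 high animal, HF-AL 10 at 0.78, and the 2 low arrays HF-DR 8 and 9 at 0.61 and 0.54. The difference was 1.44 ± 0.14 (limma, adjusted p = 3.85e-11), or 2.71-fold, and 1.59 ± 0.12 without HF-DR 8 and 9. A second probe, on chromosome 19 from 36798500 to 36798441, gave 1.13 ± 0.12.

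Ppp1r3d encodes a more widely expressed targeting subunit. Its probe lies on chromosome 2 from 178340756 to 178340697 (mm8, reverse strand). Log2 ratios of Ppp1r3d ran from -0.32 to 0.95 in HF-DR (median 0.76), from -0.30 to 1.25 in HF-AL (median 0.36) and from -0.63 to 0.41 in t=0 (median -0.06). HF-AL animals were spread over the whole range, while 10 of the 12 HF-DR animals lay at 0.36 or higher and HF-DR 8 and 9 lay at -0.32 and -0.31. The difference of HF-DR from HF-AL was 0.19 ± 0.16 and missed the threshold (limma, adjusted p = 0.302, 95% interval -0.14 to 0.52). It was 0.37 ± 0.14 without HF-DR 8 and 9 (adjusted p = 0.0205) and 0.36 ± 0.14 with the slide as a block (adjusted p = 0.046).

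The 2 synthases both rose, by unequal amounts. Gys2, the liver isoform, has its probe on chromosome 6 from 142379967 to 142379908 (mm8, reverse strand). Values of Gys2 ran from 0.16 to 2.34 in HF-DR (median 1.79), from -1.90 to -0.17 in HF-AL (median -1.07) and from -1.44 to 0.18 in t=0 (median -0.82). HF-DR lay above every HF-AL animal, although the spread within each group was wide, with an SD of 0.58 in HF-DR and 0.54 in HF-AL. HF-DR 8 and 9, at 0.16 and 1.10, were the lowest of HF-DR. The difference was 2.73 ± 0.21 (limma, adjusted p = 5.95e-14), or 6.64-fold.

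Gys1, the muscle isoform, has its probe on chromosome 7 from 45323618 to 45323677 (mm8, forward strand). Values of Gys1 ran from -0.66 to 0.46 in HF-DR (median 0.30), from -0.60 to -0.09 in HF-AL (median -0.19) and from -0.33 to 0.16 in t=0 (median -0.03). In HF-DR 10 of 12 animals were above every HF-AL animal, and HF-DR 8 and 9 were at -0.49 and -0.66. The difference was 0.44 ± 0.10 (limma, adjusted p = 0.000245), or 1.35-fold, and 0.58 ± 0.067 without these 2 arrays.

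Gbe1, the single branching enzyme, has its probe on chromosome 16 from 70452275 to 70452334 (mm8, forward strand). The log2 ratio of Gbe1 ran from 0.22 to 1.51 in HF-DR (median 1.28), from -0.96 to -0.09 in HF-AL (median -0.39) and from -0.65 to 0.09 in t=0 (median -0.26). No HF-DR animal was as low as any animal of the other groups, and the 2 lowest HF-DR values, 0.24 and 0.22, were those of HF-DR 8 and 9. The difference was 1.60 ± 0.13 (limma, adjusted p = 3.66e-13), or 3.03-fold.

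The phosphorylases went different ways. Pygl, the liver isoform, is read by a probe on chromosome 12 from 71109532 to 71109473 (mm8, reverse strand). Pygl values ran from 0.20 to 1.61 in 11 HF-DR animals (median 1.06; the spot of HF-DR 8 was marked as an outlier by the scanner software and dropped), from -0.84 to -0.28 in HF-AL (median -0.55) and from -0.53 to -0.17 in t=0 (median -0.39). The 11 HF-DR animals with a value, HF-DR 9 the lowest, did not overlap with the other groups. In the authors' log2 values, however, HF-DR 8 was at 14.93, below HF-AL 8 at 14.96 and t=0 1 at 14.99. The difference of HF-DR from HF-AL was 1.59 ± 0.095 (limma, adjusted p = 1.83e-16), or 3.02-fold. A second Pygl probe, designed on another cDNA record and lying on chromosome 12 from 71122959 to 71122900, gave 0.81 ± 0.23 (adjusted p = 0.00236), or 1.75-fold. On that probe the groups overlapped, with HF-DR at -1.06 to 0.78 and HF-AL at -1.29 to 0.51.

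Pygb, the brain isoform, was the only measured gene of the set that fell. Its probe lies on chromosome 2 from 150522246 to 150522305 (mm8, forward strand). Its values ran from -1.14 to -0.68 in HF-DR (median -0.89), from -0.35 to 0.01 in HF-AL (median -0.11) and from -0.14 to 0.32 in t=0 (median 0.12). HF-DR was below both other groups with no overlap. The difference from HF-AL was -0.73 ± 0.054 (limma, adjusted p = 2.33e-14), or 1.66-fold lower, and -0.59 ± 0.097 with a second probe on chromosome 2 from 150521115 to 150521841. Of 4 brain markers (Snap25, Syt1, Gfap and Mbp) only the myelin gene Mbp passed the filter, and it rose by 0.48 ± 0.11. Its part in the value of Pygb was not tested.

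Pygm, the muscle isoform, was not well above background in most animals. Its probe, on chromosome 19 from 6397893 to 6398064 (mm8, forward strand), was well above background on 3 arrays of t=0, 5 of HF-AL and 4 of HF-DR. The median net Cy5 signal was 37.2, 33.8 and 30.5, and 1 array of t=0 reached 366. No fold is given. Of 10 skeletal muscle markers 6 passed the filter. Of these 3 fell and none rose in HF-DR against HF-AL, where 35.9% of all genes tested were lower and 28.8% higher. On HF-DR 8 and 9, however, the summed signal of the 10 markers was 12943 and 13343, against 1770 to 3660 in HF-AL.

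In 5 of the 8 measured genes (Ppp1r3b, Gys2, Gbe1, Pygl and Pygb) the HF-DR and HF-AL animals did not overlap, which held for 14.5% of all genes tested. For Pygl this leaves out HF-DR 8, which had no value.

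The comparison of HF-AL with t=0 asks what 12 further weeks of free feeding did to the same genes. Of the 8 genes, 1 fell (Pygb), none rose and 7 passed in neither direction, where 0.697% of all genes tested were called. Pygb was lower in HF-AL by -0.28 ± 0.054 (limma, adjusted p = 0.00606), with 95% limits of -0.39 and -0.17, and a second probe gave -0.39 ± 0.097 (adjusted p = 0.0472). The call was lost with the background correction fitted on all spots (adjusted p = 0.0667) and with the slide as a block (adjusted p = 0.0682). Ppp1r3d stood 0.50 ± 0.16 above t=0 and was not called (limma, adjusted p = 0.139). It gained a call without HF-DR 8 and 9 (adjusted p = 0.04), which enter this comparison only through the common estimate of spread. It also gained one with the slide as a block (0.59 ± 0.10, adjusted p = 0.0214). With the block the count was again 1, but it was Ppp1r3d, higher, and not Pygb. For Ppp1r3b, whose difference from t=0 was 0.04, the 95% interval ran from -0.15 to 0.24. Gys1 was at -0.22 ± 0.10 (limma, adjusted p = 0.323), with an interval that left out 0 before adjustment (-0.42 to -0.017), and it was lower in HF-AL on all 9 slides that held both groups (-0.65 to -0.018). The intervals of Ppp1r3c, Gys2, Gbe1 and Pygl lay between -0.75, the lower limit for Gys2, and 0.34, the upper limit for Ppp1r3c. No member had HF-AL and t=0 animals without overlap, as held for 0.0424% of all genes tested, and among all genes 0.467% were called higher and 0.230% lower.

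Against t=0, HF-DR showed 6 higher genes (Ppp1r3b, Ppp1r3c, Ppp1r3d, Gys2, Gbe1 and Pygl), 1 lower gene (Pygb) and 1 in neither direction (Gys1), where 61.8% of all genes tested were called, 28.8% higher and 33.0% lower. This comparison shares its HF-DR animals with that of HF-DR and HF-AL. The HF-DR mice were also older than the t=0 mice, so age and restriction cannot be told apart here. Ppp1r3b was 3.91 ± 0.096 higher (15.1-fold, limma, adjusted p = 8.59e-28), Gys2 2.40 ± 0.21 (5.29-fold, adjusted p = 1.53e-12), Ppp1r3c 2.82-fold, Gbe1 1.44 ± 0.13 and Pygl 1.43 ± 0.095. Ppp1r3b again depended on the background method, at 13.2-fold with the correction fitted on all spots and 25.1-fold with the authors' processed signals. Pygb was 1.01 lower (-1.01 ± 0.054, 2.02-fold, adjusted p = 3.76e-18). Ppp1r3d was 0.69 ± 0.16 higher (adjusted p = 0.000366). Gys1 differed by 0.22 ± 0.10 and missed the threshold (adjusted p = 0.0562). Without HF-DR 8 and 9 it was 0.37 ± 0.067 higher (adjusted p = 1.13e-05), and it was also called without the 7 arrays that carried transcripts of the male tract (0.35), with ratios scaled to equal spread (0.20, adjusted p = 0.0401), with the slide as a block (0.27, adjusted p = 0.00573) and with the replicate number as a block (adjusted p = 0.0176). The second Pygl probe gave 0.27 ± 0.23 and no call (adjusted p = 0.324). Here Ppp1r3b, Ppp1r3c, Gbe1, Pygl and Pygb did not overlap with t=0, as held for 16.6% of all genes. For Pygl this again leaves out HF-DR 8. Gys2 overlapped through 1 animal on each side, HF-DR 8 at 0.16 and the highest t=0 animal at 0.18.

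**Figure D2:**
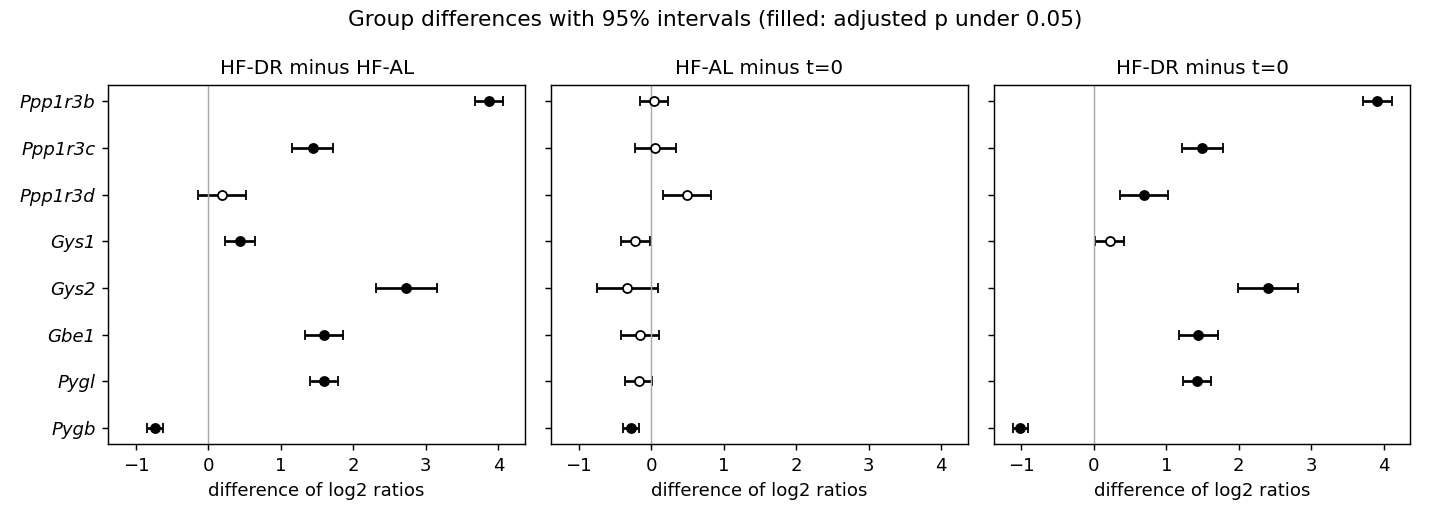
Difference of group means on the log2 scale (horizontal axis) with its 95% interval for 8 glycogen genes in the 3 comparisons; filled points have an adjusted p under 0.05. Ppp1r3b at 3.87 lies farthest to the right in HF-DR minus HF-AL, Pygb at -0.73 is the single gene left of 0 there, and in HF-AL minus t=0 only Pygb, at -0.28, is filled.

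Isoforms of the same reaction responded unequally. For each array the log2 ratio of one isoform was subtracted from that of another, and the group means of this difference were compared by a permutation test (two-sided, 100000 resamples), with p-values adjusted over 15 tests of 5 pairs in 3 comparisons. Pairs with Pygm could not be formed. Gys2 minus Gys1 averaged 1.47 ± 0.36 (SD, n = 12) over HF-DR animals against -0.83 ± 0.56 (SD, n = 12) over HF-AL animals, so that Gys2 rose by 2.29 ± 0.19 (SE) more than Gys1 (permutation test, adjusted p = 1.87e-05). The unadjusted p of 1e-05 is the smallest that the resamples can give. Pygl minus Pygb averaged 1.93 ± 0.35 (SD, n = 11) against -0.40 ± 0.21 (SD, n = 12), a gap of 2.33 ± 0.12 (permutation test, adjusted p = 1.87e-05). Among the targeting subunits, Ppp1r3b rose by 2.43 ± 0.14 more than Ppp1r3c and by 3.68 ± 0.14 more than Ppp1r3d, and Ppp1r3c by 1.24 ± 0.18 more than Ppp1r3d (permutation tests, adjusted p of 3.33e-05, 1.87e-05 and 1.87e-05). The 5 pairs gave 2.19, 2.43, 2.42, 3.22 and 0.80 for HF-DR against t=0, in the same order, and all 5 passed. Between HF-AL and t=0 only Ppp1r3b minus Ppp1r3d passed in this test, which leaves the slides out of account, with a difference of -0.46 ± 0.16 (permutation test, adjusted p = 0.0122), which was -0.22 (adjusted p = 0.499) with the background correction fitted on all spots. Within the 3 slides that held HF-DR and HF-AL the mean gaps were 1.94, 2.15, 2.46, 3.42 and 0.97, but 3 slides cannot give an exact p under 0.25. Within the 6 slides that held HF-DR and t=0 the mean gaps were 2.27, 2.34, 2.26, 3.21 and 0.95, each above 0 on every slide, and each exact p was 0.03125, the smallest that 6 slides can give (adjusted p = 0.067). Within the 9 slides that held HF-AL and t=0, Ppp1r3b minus Ppp1r3d averaged -0.62 and Ppp1r3c minus Ppp1r3d -0.59, the latter below 0 on every slide (exact tests, adjusted p = 0.0586 for both).

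Between animals of the same group, Gys2, Gbe1 and Pygl varied together. After the group means were removed, Pearson's r over 36 arrays was 0.83 for Gys2 and Gbe1 (Spearman's rho 0.84, permutation within groups, adjusted p = 0.00014 and 0.00028 over 28 pairs of genes). It was 0.61 for Gys2 with Pygl (rho 0.68, n = 35, permutation test, adjusted p = 0.00014) and 0.74 for Gbe1 with Pygl (rho 0.62, n = 35, permutation test, adjusted p = 0.00028). For Gys2 and Gbe1 the r was 0.91 within t=0, 0.80 within HF-AL and 0.84 within HF-DR. These 3 pairs passed again without the 2 arrays farthest from the median of the first gene, and without HF-DR 8 and 9. Centred on the slide as well, they passed with r of 0.85, 0.71 and 0.69. That centring leaves no deviation for an array alone on its slide and makes 2 arrays that share a slide mirror each other. The permutation took no account of this, so p-values after that centring serve as a description only. On HF-AL 5, 7 and 9 the summed Cy5 signal of epididymis and sperm markers was 3662, 16491 and 6964. The other HF-AL arrays were at 216 to 537. These 3 arrays were the lowest of HF-AL for Gys2 (-1.90, -1.61 and -1.70), Gbe1 (-0.77, -0.70 and -0.96) and Pygl (-0.79, -0.70 and -0.84). No correlation was computed without all 3 of them, and their part in r was not tested. Of the 28 pairs 16 passed in all, each with a positive r, but 8 passed for rho. Of the 16 only the 3 pairs named passed without the 2 farthest arrays. A lost call does not show that a relation was absent. Gys1 with Pygb had r of 0.45 with all arrays, 0.36 without the 2 farthest and 0.55 centred on the slide. There it passed, with the limit just given (permutation test, adjusted p = 0.00857). Gys1 and Gbe1, with r of 0.76, fell to 0.41 (adjusted p = 0.149) when the 2 farthest arrays were left out.

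**Figure D3:**
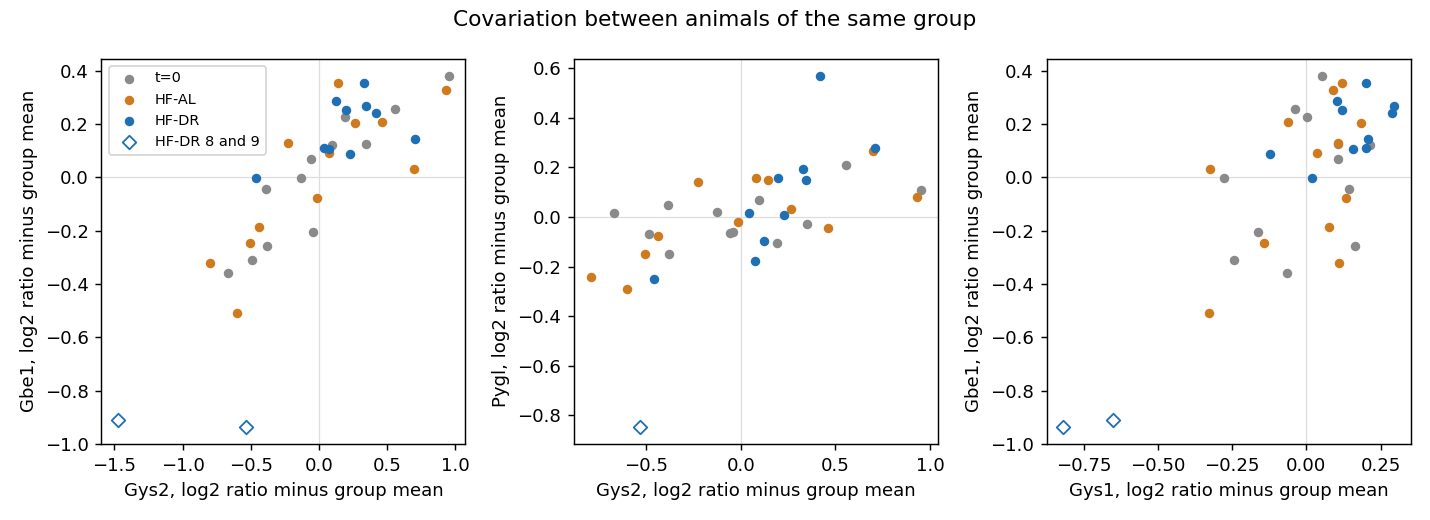
Log2 ratio minus the group mean in each animal, for Gys2 against Gbe1, Gys2 against Pygl and Gys1 against Gbe1, coloured by group. The points of all groups lie along a line in the first panel (r of 0.83), while in the third panel the 2 open diamonds, HF-DR 8 and 9, lie apart from the rest and r falls from 0.76 to 0.41 without them. Pygl has no value for HF-DR 8.

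For the brightest targeting subunit (Ppp1r3d), synthase (Gys2) and phosphorylase (Pygl), the 3 genes with the closest course between animals of a group were looked up, as a description without a test. They were Acss2, which makes acetyl-CoA from acetate, Tmem38b and Tlcd2 for Gys2 (r of 0.83 for each, n = 36, 35 and 36). For Pygl they were Olfr166, Scn10a and Cisd1 (r of 0.84, 0.82 and 0.82, n = 35). These did not all hold within each group. Within t=0 alone r was 0.47 for Olfr166, 0.83 for Scn10a and 0.18 for Cisd1. Within HF-AL it was 0.71, 0.83 and 0.88, and within HF-DR 0.92, 0.83 and 0.87. For Ppp1r3d they were Fam217b, Serpinh1 and Rab32 (r of 0.88, 0.83 and 0.83, n = 36, 36 and 35). Fam217b overlaps Ppp1r3d in the RefSeq annotation of GRCm38.p6. The differences of HF-DR from HF-AL were 2.61 ± 0.14 for Acss2 and -0.07 ± 0.14 for Fam217b.

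Other genes of the pathway, listed by function, moved both ways. Of 36 listed genes 33 were measured. Ppp1r3a, Ppp1r3g and Phka1 did not pass the filter. In HF-DR against HF-AL 17 rose, 8 fell and 8 did neither, against 28.8% higher and 35.9% lower among all genes, with a median difference of 0.19. Without HF-DR 8 and 9 the counts were 19 and 7, and the shares over all genes in that fit are not given here.

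Genes that supply glucose phosphates, UDP-glucose and the primer moved both ways. Hexokinase 2 (Hk2) rose by 1.14 ± 0.11, the UDP-glucose pyrophosphorylase Ugp2 by 0.83 ± 0.076, the primer protein glycogenin (Gyg) by 0.77 ± 0.12 and the phosphoglucomutase Pgm1 by 0.34 ± 0.099. Hexokinase 1 (Hk1, -0.48 ± 0.070) and Pgm2l1, which makes glucose 1,6-bisphosphate (-0.75 ± 0.071), fell. Pgm2 was at -0.13 ± 0.058 (limma, adjusted p = 0.0501). Hk1 and Hk2, which catalyse the same step, thus went opposite ways.

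Of the phosphatase and its other subunits 3 of 7 measured genes rose and 1 fell, where 64.7% of all genes tested were called, 28.8% higher and 35.9% lower. Ppp1r1a, known as inhibitor 1 of protein phosphatase 1, rose by 1.57 ± 0.11 (limma, adjusted p = 1.28e-14). The catalytic subunits Ppp1ca (0.37 ± 0.059) and Ppp1cc (0.33 ± 0.11) rose, the latter only without the slide as a block (0.05 with it). The targeting subunit Ppp1r3e fell, with a difference of -0.58 ± 0.071. Ppp1cb (-0.08), Ppp1r3f (0.13) and the inhibitor Ppp1r2 (0.12) passed in neither direction.

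Among genes of lysosomal breakdown and glycogen phosphate, the ubiquitin ligase malin (Nhlrc1) rose by 0.46 ± 0.066. The lysosomal glucosidase Gaa (-0.26 ± 0.060) and the starch-binding protein Stbd1 (-0.62 ± 0.11) fell, and laforin (Epm2a) was at -0.07 ± 0.062. Of the phosphorylase kinase subunits Phkb (0.29 ± 0.051) and Phkg2 (0.16 ± 0.049) rose, Phka2 (-0.47 ± 0.095) fell and Phkg1 was at -0.17 ± 0.10. The call of Phkg2 was lost with the slide as a block (adjusted p = 0.0589) and with the mean of a gene's probes.

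Of 6 genes for kinases that act on glycogen synthase 4 rose and 1 fell, where 28.8% of all genes tested were higher and 35.9% lower. The catalytic subunits of protein kinase A rose, Prkaca by 0.82 ± 0.091 and Prkacb by 0.26 ± 0.087 (0.12 and no call with the slide as a block). The 2 catalytic subunits of AMP-activated kinase went opposite ways, with Prkaa2 higher by 0.71 ± 0.087 and Prkaa1 at -0.81 ± 0.062. Gsk3a rose by 0.24 ± 0.064 and Gsk3b was at -0.11 ± 0.066. Of the genes of glucose release, G6pc3 rose by 0.23 ± 0.050 (0.11 and no call with the slide as a block), G6pc fell, with a difference of -0.22 ± 0.096 (limma, adjusted p = 0.0477, called in 6 of 12 other settings), and the transporter Slc37a4 was at 0.19 ± 0.16.

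**Figure D4:**
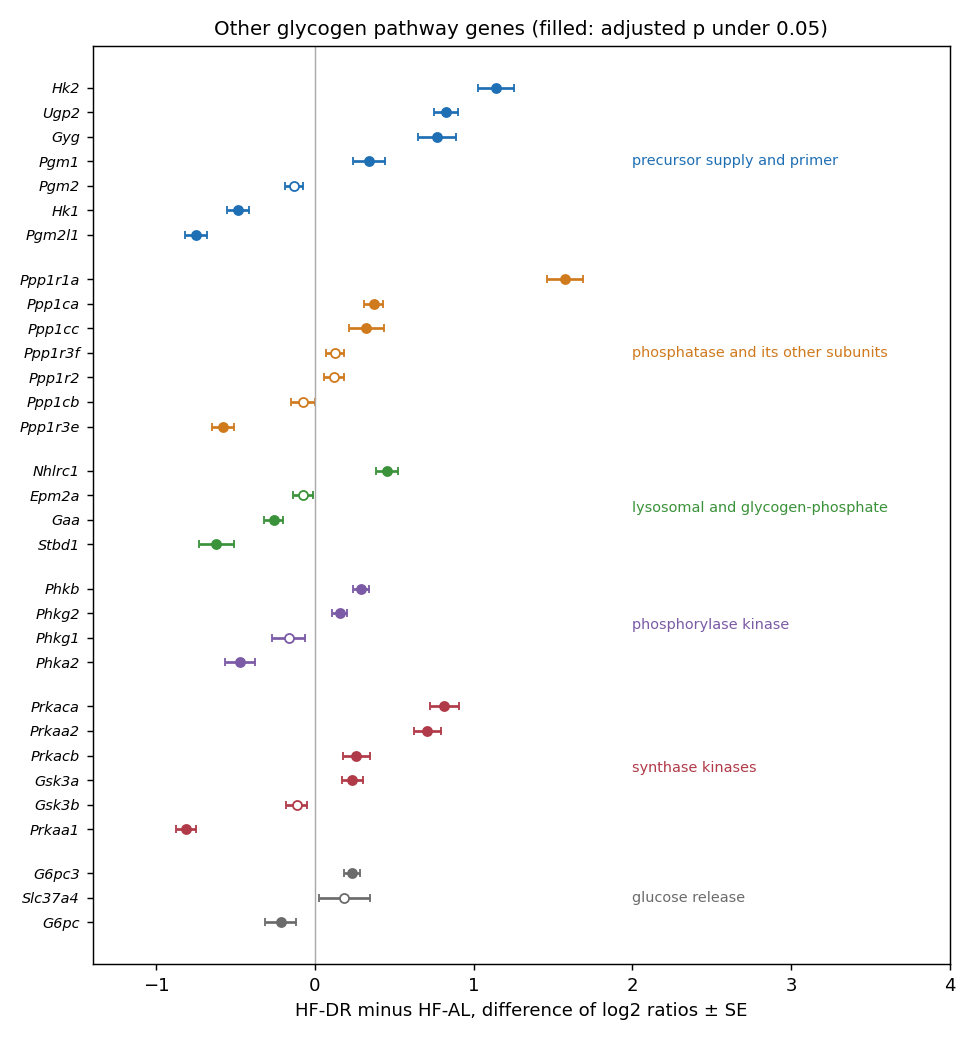
Difference of HF-DR from HF-AL on the log2 scale ± SE (horizontal axis) for other genes of the pathway, grouped by function; filled points have an adjusted p under 0.05. Ppp1r1a at 1.57 and Hk2 at 1.14 lie farthest to the right, and Prkaa1 at -0.81 and Pgm2l1 at -0.75 farthest to the left.

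Between HF-AL and t=0 none of the 33 genes was called by limma, where 0.697% of all genes were called. Without adjustment 4 of the 33 had a p under 0.05. The share of all genes at that unadjusted threshold is not given here. Without HF-DR 8 and 9, which enter through the common estimate of spread, 1 of the 33 was called. This was Prkaa2, higher by 0.23 in the fit of all arrays (limma, adjusted p = 0.222). Against t=0, HF-DR had 18 higher and 9 lower genes among the 33, where 28.8% of all genes were higher and 33.0% lower. Hk2 was higher by 1.16 ± 0.11, Ppp1r1a by 1.38 ± 0.11 and Prkaa2 by 0.94 ± 0.087, while Prkaa1 (-0.73 ± 0.062) and Pgm2l1 (-0.69 ± 0.071) were lower.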

How the data were processed

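The authors deposited 36 scans of 2-colour Agilent mouse arrays, 1 per animal, read with Feature Extraction 9.5.3.1 (Agilent), per the submitters' processing notes. The deposited intensity values used were each channel's mean signal per spot and its median local background, with no normalization per the file headers. The authors' processed intensity values, background-subtracted and dye-normalized per the file headers, were an alternative, as was the deposited series matrix. It holds the authors' log2 values, as deposited, for 22510 probes, with array medians of 9.26 to 9.29 whose lowest correlation with log2 Cy5 was 0.991. How the authors scaled them was not given in sources used here. Per the labels, 500 ng of RNA of each animal was labelled with both dyes and the Cy3 products were pooled. All arrays had the same dye orientation, so the dye effect was not measured. Probe positions are on mm8, in the order of the files, and no annotation of that build was used here.

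Background was corrected with normexp in limma 3.58.1 (R 4.3.3; offset 50), leaving out specks, spots with a net signal under -50 (84 on 12 arrays), which widened its spread more than 5 times on 10 arrays. Ratios were normalized by loess (4 iterations). Spots marked as non-uniform or population outliers were dropped (0.306% of values missing), repeat spots were averaged, probes had to be well above background on 9 or more arrays of 1 group, and of each gene the brightest probe was used. Probes were named through RefSeq by accession (24375 of them), current symbol (6301), other accession (54) or synonym (2386), and 8058 kept the file's name. Members were matched by the file's gene name. One limma fit over 36 arrays gave Benjamini-Hochberg adjusted p, two-sided, over 16497 genes. Python 3.11.15 with NumPy 2.4.6 and pandas 2.3.3 ran the permutation tests, and matplotlib 3.10.9 drew the figures. The fit was tested on simulated data. All 9 members are named, as are the listed pathway genes, except some that are counted but not reported here. The members, lists, markers and likeness rule were chosen with earlier results of these data known. The arrays lay on 21 slides, 3 of which held HF-DR with HF-AL, 9 HF-AL with t=0 and 6 HF-DR with t=0, and slide was tried as a fixed and a random block.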

Additional observations from a re-analysis of the deposited data

How the results depend on the processing

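All members kept their direction in every called comparison under the settings of the fit, and of 321 values under other settings 309 stayed on their side of the threshold, 3 lost a call and 9 gained one, all named above with their comparison. Pygb in HF-AL minus t=0 was 0.074 within 1 of 9 slides. In HF-AL minus t=0 the number of genes called moved from 115 to 213 with the authors' processed signals (94 higher and 119 lower, against 77 and 38), 71 with no filter, 73 with a filter on all 36 arrays, 197 without the 7 arrays with transcripts of the male tract, 429 without HF-DR 8 and 9 and 532 with ratios scaled to equal spread. The last 2 settings were chosen after seeing the data. The members called there were 0 with the background correction fitted on all spots (limma, 2 at an unadjusted p under 0.05), 2 of 11 probes (both of Pygb) with every probe tested, and 2 without HF-DR 8 and 9, and the pathway genes called moved from 0 to 1 without those arrays. In HF-DR minus HF-AL the series matrix gave 5208 higher and 4632 lower of 15342 genes, against 4756 and 5925 of 16497. The settings with no filter and with a filter on all 36 arrays also tested other numbers of genes. They left the ratios of the measured members as they were. Of 15 isoform tests 11 passed and 0 did within slides (smallest adjusted p 0.0586), where the 10 tests with HF-DR were at the smallest p that 3 or 6 slides allow, so that their failure says nothing about stability. Of 28 correlations 16 passed. Centred on the slide 6 did, of which 2 were not among the 16: Ppp1r3c with Pygb (r 0.45, adjusted p = 0.0248) and Ppp1r3d with Gys1, whose r went from 0.31 to -0.60 (adjusted p = 0.00182). The p-values after this centring serve as a description only, as said with the correlations. The count was 3 without the 2 farthest arrays and 3 without HF-DR 8 and 9. Of the 16, r turned on centring to -0.24 for Ppp1r3b with Gys1 and to -0.028 for Ppp1r3b with Gys2. The cause was not tested. Whether the replicate numbers shared by the groups pair the animals was not tested. The mean correlation of deviations was -0.013 for t=0 and HF-AL and -0.06 for t=0 and HF-DR. For HF-AL and HF-DR it was 0.16 (-0.14 to 0.40). With the replicate number as a block 10681, 133 and 10236 genes and 7, 1 and 8 members were called, Gys1 being the gain. Aquantile scaling leaves ratios as they are, so its differences, counted among the 321 values, could not change. Dim signals limit Pygm, which was not well above background on most arrays.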
